A study of Mus musculus with 2 samples.

Results

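The genes described here are the matrix metalloproteinases (Mmp), the Adam and Adamts proteases and the tissue inhibitors of metalloproteinases (Timp) in GIF-5 cells, an epithelial line from mouse stomach, compared between cells with and without CD133 on their surface. They were chosen by name alone, as every non-control spot whose gene name began with Mmp, Timp, Adam or Adamts followed directly by a digit. This gave 70 genes of 27962 gene names on the array, with 123 probes on 132 spots: 21 Mmp, 28 Adam, 17 Adamts and 4 Timp genes. GIF-5 has the genotype Runx3-/-p53-/- in both groups, so no comparison here involves cells with either gene. The line was grown in DMEM with bovine serum, and a suspension stained with a phycoerythrin-labelled antibody was split on a flow sorter by CD133, giving a CD133-positive and a CD133-negative fraction. Each of 2 arrays held RNA of the CD133-positive cells labelled with Cy3 and RNA of the CD133-negative cells labelled with Cy5. The labels call the arrays biological replicates without saying whether cultures or sorts were separate, so the p-values measure only the spread between these 2 arrays, which may be technical. No array had the dyes swapped, so a dye effect and the fraction cannot be told apart for any gene below.

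Matrix metalloproteinases are zinc enzymes that cut collagens, fibronectin and other proteins outside the cell. Most are secreted as inactive proenzymes, and the membrane-type members are anchored on the cell surface. Adam proteases are mostly membrane-bound and release the outer part of growth factors, receptors and adhesion proteins, a step called shedding, although several Adams lack the catalytic zinc site. Adamts proteases are secreted and cut proteoglycans, procollagens or von Willebrand factor. The Timps are small secreted proteins that block metalloproteinases, and Timp2 also takes part in the activation of pro-Mmp2 by Mmp14 on the cell surface. In the stomach these enzymes are known from mucosal repair and from tumour invasion.

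The first 3 promoter windows are shown first because Mmp13 and Mmp14 stand among the results below, and Mmp10 is the other tested gene of the Mmp cluster that holds Mmp13. The windows of Mmp15 and Timp2 follow because these genes lie at the other end of the results and beside Mmp14. Each is the 150 bases before the RefSeq transcript start on build GRCm38.p6, 5′ to 3′ on the strand of the gene. They are Mmp13 at chr9:7272364-7272513 (plus strand), Mmp10 at chr9:7502192-7502341 (plus), Mmp14 at chr14:54431448-54431597 (plus), Mmp15 at chr8:95352146-95352295 (plus) and Timp2 at chr11:118355412-118355561 (minus). Capitals mark matches to the letters of the AP-1 site (TGANTCA), the RUNX site (TGTGGT, or ACCACA on the other strand) or the TATA box (TATAAA).
Mmp13: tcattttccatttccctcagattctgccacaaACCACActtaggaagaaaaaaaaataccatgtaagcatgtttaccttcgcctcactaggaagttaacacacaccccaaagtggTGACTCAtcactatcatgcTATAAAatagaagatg
Mmp10: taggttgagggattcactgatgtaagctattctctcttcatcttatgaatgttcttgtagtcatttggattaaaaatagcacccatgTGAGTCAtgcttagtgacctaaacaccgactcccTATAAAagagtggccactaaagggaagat
Mmp14: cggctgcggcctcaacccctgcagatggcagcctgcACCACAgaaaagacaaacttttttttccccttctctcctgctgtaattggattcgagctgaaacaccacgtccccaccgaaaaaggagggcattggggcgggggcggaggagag
Mmp15: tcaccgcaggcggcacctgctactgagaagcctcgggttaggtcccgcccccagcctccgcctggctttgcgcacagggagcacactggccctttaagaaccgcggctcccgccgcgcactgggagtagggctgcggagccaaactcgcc
Timp2: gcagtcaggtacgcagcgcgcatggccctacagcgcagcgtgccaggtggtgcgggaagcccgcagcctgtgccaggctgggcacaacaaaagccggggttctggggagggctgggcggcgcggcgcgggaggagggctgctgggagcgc

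Both AP-1 and TATA letters were present in the windows of Mmp13 and Mmp10, RUNX letters in those of Mmp13 and Mmp14, and none of the 3 motifs in those of Mmp15 and Timp2. The windows of Mmp13 and Mmp10 each held 1 CG pair, against 7 in that of Mmp14, 13 in that of Mmp15 and 14 in that of Timp2. Over 250 bases before the start, searched on both strands, AP-1 letters were found in 10 of the 40 genes with a promoter in the table. They stood in 6.75% of all 32851 promoters of the same length. Of the 10, 7 lie in the Mmp cluster on chromosome 9, where 8 genes had a promoter in the table: Mmp13, Mmp12, Mmp3, Mmp1a, Mmp10, Mmp20 and Mmp7 held the letters. In Mmp13 they began at position -35 from the start and in Mmp10 at position -63. RUNX letters were found in 8 of the 40 genes, among them Mmp13, Mmp14, Mmp23 and Adam15, and in 14% of all promoters. TATA letters were found in 9 of the 40 genes and in 12.4% of all promoters. Of the 40, 20 were genes whose ratio could be tested. Among these 20, AP-1 letters were found in 2 (Mmp13 and Mmp10), RUNX letters in 5 and TATA letters in 3. The motifs did not overlap each other in the windows printed. A match describes the letters and is no evidence of a bound factor.

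Probe brightness sorted the genes first. Of the 70, 32 could be tested, meaning that a probe was well above background on both arrays in at least 1 fraction. The other 38 could not, and 32 of these had no probe above background on either array. The untested genes included both gelatinases, Mmp2 and Mmp9, which cut denatured collagen and basement membrane, and Mmp7, Mmp8, Mmp12, Mmp1a, Mmp20, Mmp21 and Mmp25. One Mmp9 probe was spotted 10 times on each array and gave a mean log2 ratio of -0.03 on array 1 and -0.0037 on array 2, with an SD over spots of 0.07 and 0.11 (1 outlier spot on array 1). Its spots were not well above background, so no level of Mmp9 is given. Also untested were 18 of the Adams, among them Adam12 and Adam19, and both procollagen N-proteinases on the array, Adamts2 and Adamts3.

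Of the 32 tested genes, 22 were well above background in both fractions on both arrays. The other 10 passed through the CD133-negative cells alone, which is 31.2% of the tested genes against 7.87% over all 15267 genes tested on the array. None passed through the CD133-positive cells alone, against 1.98% of all tested genes. In 7 of the 10 the CD133-positive cells were above background on 1 array, and in Mmp10, Timp3 and Adam18 on neither. The 7 were Mmp16, Mmp24, Mmp28, Adam23, Adamts4, Adamts5 and Adamts6. The filter itself favours a lower ratio in genes that pass in this way, so counts are also given for the 22 genes measured in both fractions.

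Each ratio is given as log2 of the CD133-positive signal divided by the CD133-negative one, so a negative value is a lower signal in CD133-positive cells, and errors are moderated standard errors from limma over both arrays. By limma with Benjamini-Hochberg adjustment over all tested genes at 0.05, Mmp14 and Timp2 fell in CD133-positive cells, where 251 of all tested genes (1.64%) were called and 0.262% were called lower. None of the 32 was called higher, where 1.38% of all tested genes were. At an unadjusted p under 0.05, 12 were lower and 1 was higher, against 16% and 11.9% of all tested genes. The 12 were Mmp11, Mmp13, Mmp14, Timp1, Timp2, Adam8, Adam9, Adam15, Adam23, Adamts1, Adamts5 and Adamts7, and the 1 higher was Mmp15. Among the 22 genes measured in both fractions, 10 were lower and 1 was higher, since Adam23 and Adamts5 passed only through the CD133-negative cells. The split of 0 higher and 2 lower calls became 1 and 5 with the ratios scaled between arrays, and 0 and 16 with each array centred on its median in place of loess. Under that centring 63% of all tested genes were called lower, and the 16 include Adam17, Adam10 and Mmp16, whose ratios relative to all genes were then 0.23, 0.17 and 0.21. Fewer cells making an RNA and less RNA per cell cannot be told apart in sorted pools.

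On both arrays, 23 of the 32 genes had a ratio below 0 (71.9%, against 39.7% of all tested genes) and 5 above 0 (32.6% of all tested genes), and 4 had opposite signs. The 5 were Mmp15, Mmp23, Timp4, Adam17 and Adam28, and the 4 were Mmp17, Adam1a, Adamts4 and Adamts15. In 22 of the 32, both CD133-positive signals were below both CD133-negative signals (34.6% of all tested genes); in 4 they were above (27.6%), and in 6 the fractions overlapped (Mmp17, Timp4, Adam1a, Adamts4, Adamts10 and Adamts15). Among the 22 genes measured in both fractions these counts were 13, 4 and 5. The median ratio was -0.28 over the 32 genes and -0.03 over all tested genes. Over the 22 genes measured in both fractions the median was -0.40, with 14 of 22 below 0 on both arrays. The median was -0.02 over the 13775 genes tested when both fractions had to be well above background on both arrays. Over those genes, shares were not computed for an unadjusted p under 0.05, ratios below 0 or fractions without overlap. The counts among the 22 therefore have no like share beside them. With median centring in place of loess, which shifted the median of all genes by -0.71, the median of the 32 was 0.19 once that shift was taken out, so the sign of the median changed with that step.

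A difference of at least 2-fold on both arrays was found for 1 gene in the higher direction (Mmp15; 2.5% of all tested genes) and for 5 in the lower direction (Mmp13, Mmp14, Timp2, Adam8 and Adamts7; 2.12% of all tested genes). All 6 were measured in both fractions on both arrays. The 2 arrays gave unequal sizes: counted on one array at a time, 10 genes reached a 2-fold lower signal on array 2 and 5 did on array 1. The like shares over all tested genes were not computed for single arrays. For the 32 genes together the median was -0.16 on array 1 and -0.49 on array 2, and 26 of the 32 were lower on array 2 than on array 1 (81.2%, against 56.7% of all tested genes). Across the 32 genes, which share both arrays, the 2 arrays' ratios had a Pearson r of 0.796 and a Spearman rho of 0.794, against 0.771 and 0.663 across all tested genes. The SD of the ratios was 0.61 on array 1 and 0.88 on array 2 for the 32 genes, against 0.60 and 0.76 for all tested genes. Ratios were thus wider on array 2 over all tested genes as well.

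**Figure D1:**
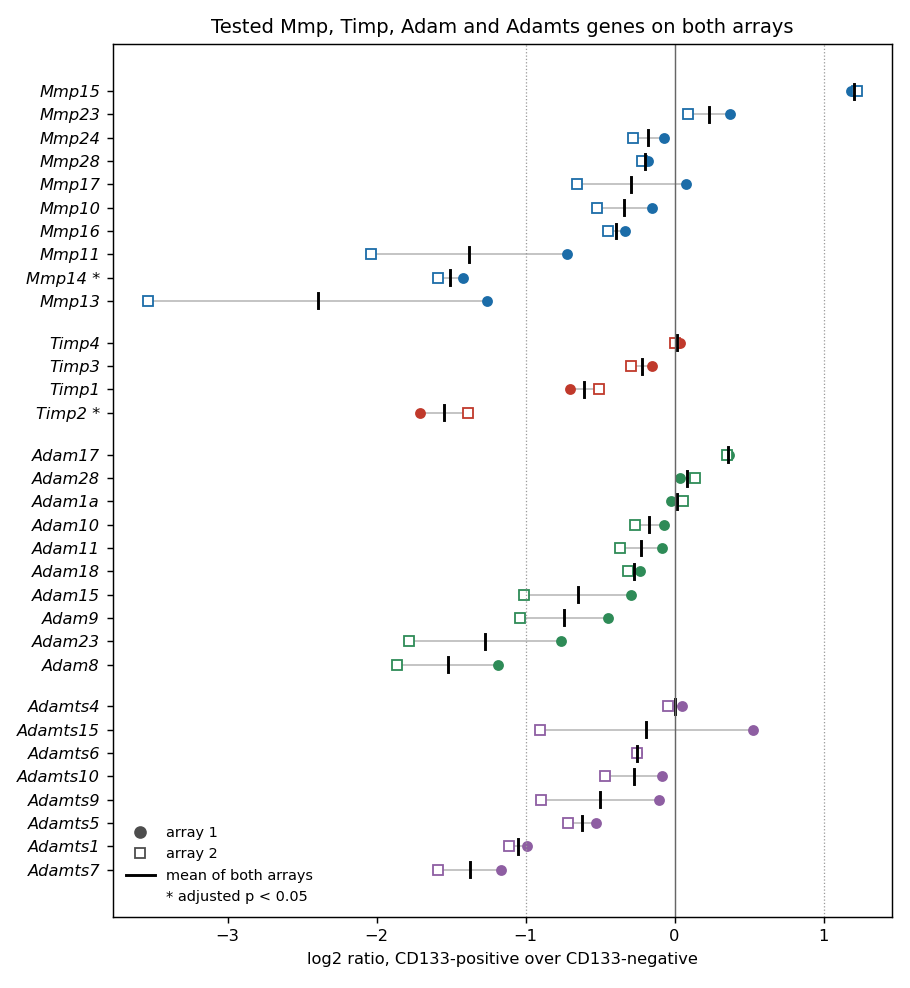
Log2 ratio, CD133-positive over CD133-negative (horizontal axis), for each of the 32 tested genes, with array 1 as a filled circle, array 2 as an open square and the mean as a black bar. Dotted lines mark a 2-fold difference and asterisks the genes called by limma. Mmp15 stands alone beyond 2-fold on the right, and Mmp13, Mmp14, Timp2, Adam8 and Adamts7 lie beyond 2-fold on the left on both arrays.

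**Figure D2:**
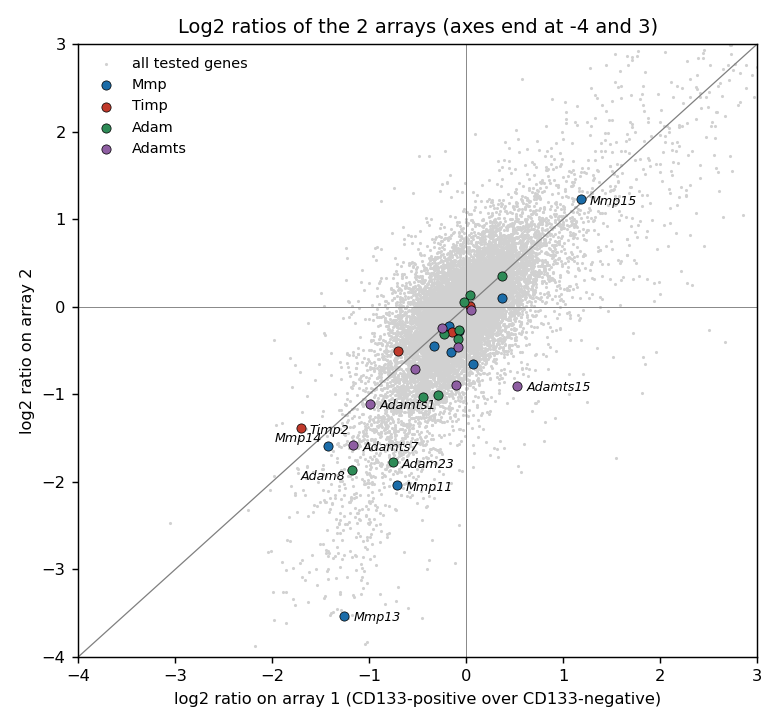
Log2 ratio on array 1 (horizontal) against array 2 (vertical), with all tested genes in grey and the 32 tested genes coloured by family. The axes end at -4 and 3, so more extreme genes are not drawn. Mmp13, Mmp11, Adam8 and Adam23 lie below the diagonal, with a lower ratio on array 2, and Mmp15 lies close to it.

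Among the membrane-type metalloproteinases, which act on the cell surface, 1 of 5 tested members fell and none was called higher (1 in each direction at an unadjusted p under 0.05). Mmp14 (MT1-MMP), a collagenase of the cell surface and activator of pro-Mmp2, had a normalised log2 intensity of 11.65 and 11.22 in CD133-positive cells on arrays 1 and 2, and of 13.07 and 12.81 in CD133-negative cells. Both CD133-positive values lay below both CD133-negative ones, by more than the gap between arrays. The ratios were -1.42 and -1.59, with a mean of -1.50 ± 0.14 (SE, n = 2; adjusted p = 0.042), a signal 2.84-fold higher in CD133-negative cells (95% interval of the log2 ratio -1.90 to -1.10). A second Mmp14 probe gave -1.07 and -1.28. The call was lost with the deposited log10 ratio (adjusted p = 0.061), with no filter on dim probes (0.096), with the dimmer probe (0.075), without variance moderation (0.50) and in a test against a log2 fold of 0.5 (0.092).

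Mmp15 (MT2-MMP), also a membrane-type enzyme, stood the other way. Its log2 intensity was 10.99 and 10.72 in CD133-positive cells and 9.80 and 9.499 in CD133-negative cells on arrays 1 and 2. There was no overlap between fractions, and the arrays differed by 0.04 in the ratio: 1.18 and 1.22, mean 1.20 ± 0.14 (SE, n = 2), or 2.30-fold. The adjusted p was 0.055, just over the threshold, and Mmp15 was called without background correction, with an offset of 16, with scaling between arrays, with the filter on both channels, with the mean of probes and with an intensity trend. Mmp15 and Mmp14 thus had ratios of opposite sign on both arrays. The other 3 tested members gave smaller values: Mmp16 (MT3-MMP) had -0.33 and -0.45 (adjusted p = 0.18), Mmp24 (MT5-MMP) had -0.07 and -0.28, and Mmp17 (MT4-MMP) had 0.07 and -0.65. Mmp17 had opposite signs on the arrays and overlapping fractions. Mmp16 and Mmp24 passed only through the CD133-negative cells, with CD133-positive cells above background on 1 array.

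Among the secreted metalloproteinases none was called (unadjusted p under 0.05 for 2, both lower). Mmp13 (collagenase-3), which cuts fibrillar collagens, had a log2 intensity of 9.38 and 7.64 in CD133-positive cells and of 10.64 and 11.17 in CD133-negative cells. No overlap between fractions was seen, but the ratio was -1.26 on array 1 and -3.53 on array 2, the widest gap between arrays among the 32 genes. Its mean was -2.40 ± 0.59 (SE, n = 2), the lowest of the 32, with an adjusted p of 0.11. Mmp11 (stromelysin-3), known mostly from tumour stroma, also differed more on array 2: it had 10.91 and 9.86 in CD133-positive cells against 11.62 and 11.90 in CD133-negative cells. Its ratios were -0.72 and -2.04 (mean -1.38 ± 0.36, adjusted p = 0.12), so array 1 alone shows less than a 2-fold difference.

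Mmp10 (stromelysin-2), which lies in the chromosome 9 cluster with Mmp13, was not well above background in CD133-positive cells. Its ratios were -0.15 and -0.52 (adjusted p = 0.28), with a 95% interval of the mean from -0.80 to 0.13. RefSeq orders 10 Mmp genes in that cluster (Mmp13, Mmp12, Mmp1b, Mmp3, Mmp1a, Mmp10, Mmp8, Mmp27, Mmp20, Mmp7), of which 8 had a probe here. Only Mmp13 and Mmp10 of the 8 were tested, and the AP-1 letters shown above were present in untested genes of the cluster as well as in these. Mmp23, a membrane-anchored enzyme that lacks the usual hemopexin domain, had 0.37 and 0.09, and Mmp28 (epilysin), an enzyme of epithelia, had -0.18 and -0.22. Neither was called, and the fractions did not overlap for either. Mmp28 passed only through the CD133-negative cells, with CD133-positive cells above background on 1 array.

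All 4 Timps were tested. Timp2, the inhibitor that also forms a complex with Mmp14, fell in CD133-positive cells. Its log2 intensity was 12.84 and 12.61 in CD133-positive cells on arrays 1 and 2 and 14.55 and 13.999 in CD133-negative cells, with no overlap. The ratios were -1.71 and -1.39, with a mean of -1.55 ± 0.16 (SE, n = 2; adjusted p = 0.047), or 2.93-fold higher in CD133-negative cells, from 1 probe (95% interval -1.99 to -1.10). Mmp14 and Timp2 thus fell in the same fraction. The call for Timp2 was lost with the deposited log10 ratio (adjusted p = 0.061), no dim-probe filter (0.106), the dimmest probe of each gene (0.057), no moderation (0.505) and a test against a log2 fold of 0.5 (0.105).

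Timp1, an inhibitor of most soluble metalloproteinases, had 10.81 and 10.78 in CD133-positive cells and 11.52 and 11.29 in CD133-negative cells. The fractions did not overlap, and the ratios of -0.70 and -0.51 (mean -0.61 ± 0.14) had an adjusted p of 0.11. The other 2 Timp1 probes gave -0.50 and -0.48, and -0.65 and -0.43, so all 3 probes placed the ratio in a narrow range. Timp3, which binds to the extracellular matrix and also blocks Adam17, had -0.15 and -0.29 (adjusted p = 0.39). It was not well above background in CD133-positive cells, and the 95% interval of its mean ran from -0.61 to 0.18. Timp4 had 0.04 and 0.0025 (adjusted p = 0.95, 95% interval -0.36 to 0.40), with overlapping fractions.

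**Figure D3:**
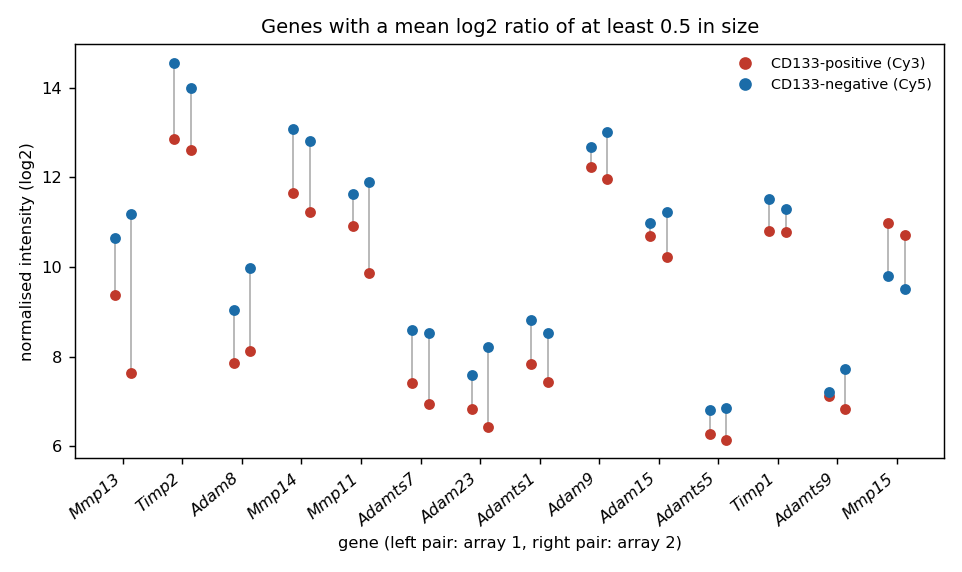
Normalised log2 intensity in CD133-positive cells (red, Cy3) and CD133-negative cells (blue, Cy5) for the 14 tested genes with a mean log2 ratio of at least 0.5 in size, ordered by that ratio, with the left pair from array 1 and the right pair from array 2. Levels of different genes cannot be compared because each has its own probe. Mmp15 is the gene in which red lies above blue, and the gap for Mmp13 is wider on array 2.

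None of the 10 tested Adams was called by limma. At an unadjusted p under 0.05, 4 were lower and 0 higher, against 16% and 11.9% of all tested genes. The median of the 10 was -0.25, and 7 had a ratio below 0 on both arrays (39.7% of all tested genes). Adam18 and Adam23, both among the 7, passed only through the CD133-negative cells, which favours a lower ratio. Adam23 is also among the 4 lower. The main sheddases, Adam17 and Adam10, gave small values. Adam17 (TACE), which releases tumour necrosis factor and several ligands of the epidermal growth factor receptor, had 9.77 and 9.81 in CD133-positive cells and 9.40 and 9.46 in CD133-negative cells. There was no overlap between fractions, and the ratios were 0.37 and 0.35 (mean 0.36 ± 0.14, adjusted p = 0.19), with 0.45 and 0.38 from a second probe. Adam10, which cuts Notch receptors and E-cadherin, had -0.07 and -0.27 (mean -0.17 ± 0.14, adjusted p = 0.52). A 95% interval of -0.58 to 0.24 bounds the Adam10 ratio, and one of -0.02 to 0.74 that of Adam17.

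Larger values were found for Adam8, Adam23, Adam9 and Adam15. Adam8, a protease known from leukocytes and from invasive tumours, had a log2 intensity of 7.86 and 8.12 in CD133-positive cells and of 9.05 and 9.99 in CD133-negative cells. No overlap between fractions was seen, and the ratios were -1.18 and -1.86 (mean -1.52 ± 0.22, adjusted p = 0.068), or 2.87-fold. Adam23, which lacks the catalytic site and binds integrins, had 6.83 and 6.43 against 7.59 and 8.21. Its ratios of -0.76 and -1.78 (mean -1.27 ± 0.29, adjusted p = 0.11) rest on the brighter probe, while the second gave -0.02 and -0.33. Only 1 of the arrays had Adam23 well above background in CD133-positive cells.

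Adam9, a widely expressed sheddase, had 12.24 and 11.97 in CD133-positive cells against 12.68 and 13.00 in CD133-negative cells. Adam15, an Adam with an integrin-binding disintegrin domain, had 10.68 and 10.22 against 10.97 and 11.22. For both the fractions did not overlap, and array 2 gave the larger difference: -0.44 and -1.03 for Adam9 (adjusted p = 0.13), and -0.29 and -1.01 for Adam15 (adjusted p = 0.18). A second Adam15 probe gave -0.20 and -0.65. Adam28 had 0.04 and 0.13, Adam1a -0.02 and 0.05, Adam11 -0.08 and -0.37, and Adam18 -0.23 and -0.31. Adam18, a testis protein, was not well above background in CD133-positive cells, and the 95% interval of its mean ran from -0.66 to 0.11.

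None of the 8 tested Adamts genes was called. At an unadjusted p under 0.05, 3 were lower and 0 higher, against 16% and 11.9% of all tested genes. A ratio below 0 on both arrays was found for 6 of the 8 (39.7% of all tested genes). Adamts5 and Adamts6, both among the 6, passed only through the CD133-negative cells, which favours a lower ratio. Adamts5 is also among the 3 lower. The median of the 8 was -0.39. Among the hyalectanases, which cut versican and aggrecan, Adamts1 had a log2 intensity of 7.84 and 7.43 in CD133-positive cells and of 8.83 and 8.54 in CD133-negative cells. The fractions did not overlap, and the ratios were -0.99 and -1.11 (mean -1.05 ± 0.14, adjusted p = 0.066). A dimmer Adamts1 probe gave -0.26 and -0.21. Adamts5, the neighbour of Adamts1 on chromosome 16 with no gene between them, had -0.53 and -0.71 (mean -0.62 ± 0.14, adjusted p = 0.11), with CD133-positive cells above background on 1 array.

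Adamts15, another hyalectanase, was the gene on which the arrays disagreed most in sign: 0.53 on array 1 and -0.90 on array 2 (mean -0.19 ± 0.39, adjusted p = 0.81). Its log2 intensity was 7.95 and 6.67 in CD133-positive cells and 7.43 and 7.58 in CD133-negative cells, so the CD133-positive values lay on either side of the CD133-negative ones. Adamts9 had -0.11 and -0.90, and Adamts4 had 0.05 and -0.04. Of the other Adamts genes, Adamts7, which cuts cartilage oligomeric matrix protein, had 7.42 and 6.95 in CD133-positive cells and 8.59 and 8.53 in CD133-negative cells. There was no overlap between fractions, and the ratios were -1.17 and -1.59 (mean -1.38 ± 0.17, adjusted p = 0.062), with -0.70 and -0.81 from a second probe. Adamts6 had -0.25 on both arrays, and Adamts10 had -0.09 and -0.46.

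**Figure D4:**
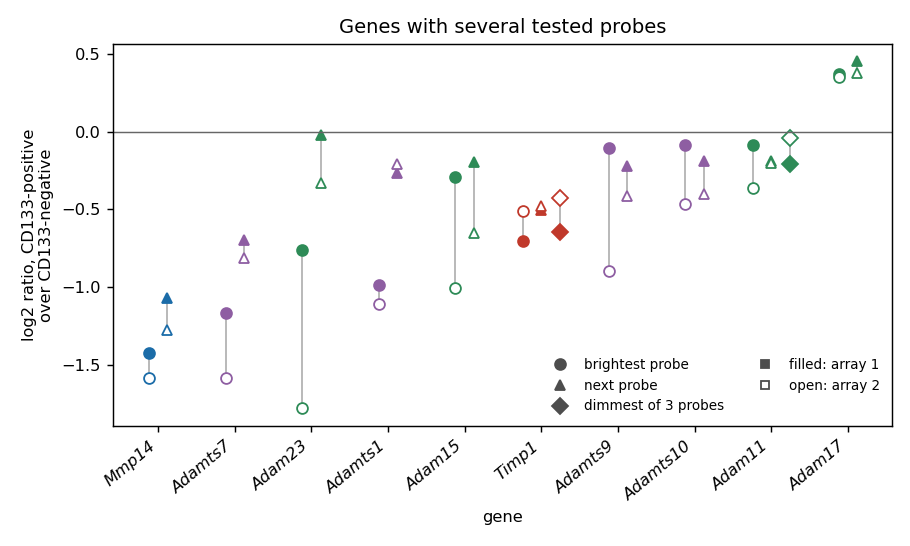
Log2 ratio of each tested probe (vertical axis) for the 10 genes with several tested probes, array 1 filled and array 2 open, with the brightest probe as a circle. All probes of a gene lie on the same side of 0, and the dimmer probes of Adam23 and Adamts1 lie nearer to 0 than the brightest ones. The dimmest probes of Adam11, Adam23, Adamts1, Adamts9 and Adamts10 passed only through the CD133-negative cells, which favours a ratio below 0.

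In all, 10 of the 32 genes had more than 1 tested probe, and in each of the 10 every probe had the same sign on both arrays. For Adam11, Adam23, Adamts1, Adamts9 and Adamts10 the dimmest of these probes passed only through the CD133-negative cells. That route favours a lower ratio, so the shared sign of these genes is partly set by the filter. The like share over all genes was not computed. The mean ratio differed most between probes for Adam23 (-1.27 and -0.18) and Adamts1 (-1.05 and -0.24), then for Adamts7 (-1.38 and -0.76). The deposited log10 ratio, turned to the same direction and scale, differs in both background subtraction and dye normalisation. By that ratio 11 genes were at least 2-fold lower on both arrays: Mmp13, Mmp14, Mmp16, Timp2, Timp3, Adam8, Adam18, Adam23, Adamts1, Adamts5 and Adamts7. Of the 11, 6 were well above background in both fractions on both arrays (Mmp13, Mmp14, Timp2, Adam8, Adamts1 and Adamts7). The other 5 missed it in the CD133-positive fraction on 1 array or both, so neither this ratio nor those printed above fix the size of their difference. By the same ratio Mmp14 had -1.45 and -1.57 and Timp2 -1.72 and -1.43.

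The genes around these proteases were described from fixed lists. For the counts below, 16% of all tested genes were lower and 11.9% higher at an unadjusted p under 0.05. Ratios below 0 on both arrays were found for 39.7% of all tested genes. Of 27 activators, inhibitors and partners, 20 were tested and none was called (10 lower and 2 higher at an unadjusted p under 0.05, median -0.54). Tspan17, a tetraspanin that escorts Adam10, had -0.98 and -2.60. Of the other tetraspanins in the list, Tspan5 had -0.50 and -0.885 and Tspan33 had -0.26 and -0.90. In the other direction, Tspan14 and Tspan15, which also escort Adam10, had means of 0.46 and 0.45. Cd44, a hyaluronan receptor that docks metalloproteinases at the cell surface, had -0.72 and -1.55. Reck, a membrane-anchored inhibitor of Mmp14, had a mean of -0.54, and Furin, which activates membrane-type proenzymes, one of 0.20. Reck passed the filter only through the CD133-negative cells, with CD133-positive cells above background on 1 array.

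Of 16 other metzincins, their enhancers and Adamts-like proteins, 6 were tested and all 6 had ratios below 0 on both arrays (median -1.17). Pcolce2, an enhancer of procollagen processing, fell (-1.28 and -1.33, mean -1.31 ± 0.14, adjusted p = 0.048). Bmp1, a procollagen C-proteinase, had a mean of -1.22 (adjusted p = 0.066), Pcolce -1.30 and Adamtsl4 -1.11. At an unadjusted p under 0.05, 5 of the 6 were lower and 0 higher.

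Of 26 membrane proteins that Adams shed, 24 were tested (median -0.09). Cx3cl1, a membrane-bound chemokine cut by Adam10 and Adam17, rose in CD133-positive cells with 2.24 and 2.32 (mean 2.28 ± 0.14, adjusted p = 0.020) and was the only one of the 24 called (2 higher and 6 lower at an unadjusted p under 0.05). Hbegf, a growth factor shed mainly by Adam17, had a mean of 0.69 (adjusted p = 0.088), Btc 2.00 and 0.14, and Jag1, a Notch ligand, -0.999 and -2.43. Of 22 matrix proteins cut by metalloproteinases, 17 were tested (median -1.16). The basement membrane collagens Col4a1 (2.27 ± 0.15) and Col4a2 (1.87 ± 0.15) rose, and the anchoring fibril collagen Col7a1 fell (-2.41 ± 0.24, adjusted p = 0.046). At least 2-fold lower on both arrays were 8 of the 17 (2.12% of all tested genes). The lowest means were those of Spp1 (-3.58), Col5a1 (-2.57) and Thbs1 (-1.96), none of which was called.

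The sort and the cell type were checked against markers. Prom1, which encodes CD133, was called higher (limma adjusted p = 0.0097). In CD133-negative cells neither array had it well above background. Its mean signal in CD133-positive cells was 12.0-fold the lowest signal of any probe well above background in CD133-negative cells. That lowest signal is not a detection limit, so the value is no strict bound. Of 9 epithelial markers 7 were tested, and 3 were lower and 1 higher at an unadjusted p under 0.05. Krt8 (-0.78), Krt18 (-0.54) and Krt19 (-0.79) were detected in both fractions and not called, and Ocln was called higher. Epcam was well above background on 1 array in CD133-negative cells alone, and Cldn7 on both arrays in CD133-positive cells alone. Of 11 gastric markers, 8 were tested and 4 were called higher (Gkn2, Tff1, Muc1 and Pga5). The median ratio of the 8 was 2.24. Gkn1 and Pgc, among the 8, passed only through the CD133-positive cells, which favours a higher ratio. The summed signal of the 8 was 59023 to 138363 in CD133-positive and 2710 to 4747 in CD133-negative cells. Summed epithelial signal was 195752 to 219953 in CD133-positive and 320807 to 330918 in CD133-negative cells. Of 10 leukocyte markers 5 were tested and none was called (1 at an unadjusted p under 0.05, lower), with Ptprc, Itgam, Adgre1 and Cd52 above background on no array and summed signals of 1711 to 1900.4 and 1737 to 1928. Of 8 fibroblast markers 2 were tested and none was called (1 at an unadjusted p under 0.05, Col1a1, lower), with sums of 177 to 201 and 308 to 342, and Dcn, Lum, Pdgfra, Pdgfrb and Thy1 were above background on no array. Of 4 smooth muscle markers 3 were tested and none was called (1 at an unadjusted p under 0.05, lower), with sums of 8486 to 9113 and 7713 to 8512. Of 6 endothelial markers, Vwf and Cdh5 were tested and called higher, with sums of 1708 to 2467 and 172 to 191, and Pecam1, Kdr, Tek and Emcn were above background on no array. Cdh5 passed only through the CD133-positive cells, which favours a higher ratio. Whether the gastric and endothelial markers or the epithelial level bear on the protease values was not tested.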

How the data were processed

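Per the file headers, the authors read the arrays with Agilent Feature Extraction 9.5.3.1. The deposited spot and background intensity is unnormalised, and the deposited log10 ratio is that of Cy5 over Cy3 after the program's background subtraction and dye normalisation. The value table holds the same log10 ratio in all 45018 spots of each array, with a median of 0. Here intensities were corrected by normexp (offset 50) and normalised by loess within each array, with controls at weight 0, and log2 ratios were computed. Single-channel levels were also made comparable between arrays by Aquantile. Probes were kept if well above background in one channel on both arrays; flagged spots were left out and no spot was saturated. Of 41174 probes, 22951 were named through accessions and 9768 through symbols in RefSeq (GRCm38.p6), and 8455 kept the file's name. A gene was its brightest tested probe, giving 15267 genes from 23173 probes. limma 3.58.1 in R 4.3.3 tested the mean ratio, two-sided, with 1 residual and 2.86 prior degrees of freedom; the script was tested on simulated data. The number of arrays limits the precision, and both lay on 1 slide, so there is no batch to compare.

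The genes and lists were chosen with earlier results of these data known. The rule for named genes was: called genes, up to 24 of the largest mean ratios with 1 direction on both arrays, the highest and lowest of each role class, and all Timps, Mmp14, Adam10 and Adam17; of each other list, the called genes and up to 3 more. Other members are named where counts of them are spelled out. Tspan5, Tspan14, Tspan15, Tspan33, Reck, Furin, Jag1, Btc, Hbegf and the markers were named after their values were seen. Alternatives covered background correction, normalisation, the dim-probe filter, the choice of probe, the variance model and leaving out each array. The Adams are described as one class because their protein sequences were not used here. Promoters were read from a RefSeq table, in which 40 of the 70 genes had an entry.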

Additional observations from a re-analysis of the deposited data

Results flagged for a closer look

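Among the 6 untested genes with a probe well above background on 1 array, 2 had a spot signal above every one of the 153 negative control spots of that array and channel. Both were in CD133-negative cells on array 1, where the highest negative control stood at 14.55 above its local background. Adam4, a testis Adam, had a spot signal of 34.3 above local background, and Mmp19, a metalloproteinase of epithelia, had 40.9. Neither was well above background on array 2 or in CD133-positive cells, so both stay out of the comparison, and the difference between fractions was not tested for either.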

How the results depend on the processing

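The genes picked by the naming rule were followed through the alternatives, of which those that change only the test or the filter leave a ratio as it is. With median centring in place of loess, taken relative to all genes, the ratio turned to 0.17 for Adam10, 0.39 for Adam11, 0.40 for Adam18, 0.27 for Adamts10, 0.39 for Adamts6, 0.31 for Mmp10, 0.21 for Mmp16, 0.50 for Mmp28 and 0.52 for Timp3. Adamts4, near 0, turned to -0.032 without background correction, to -0.056 with the deposited ratio and to -0.043 with array 1 left out. The 251 genes called became 383 without background correction, 563 with an offset of 16, 10107 with median centring, 520 with scaling between arrays, 486 with the deposited ratio, 29 with no filter, 156 with the dimmest probe, 820 with an intensity trend, 0 without moderation (where 2 of the protease genes were higher and 3 lower at an unadjusted p under 0.05) and 134 against a log2 fold of 0.5. Protease genes called higher went from 0 to 1, Mmp15, without background correction, with an offset of 16, scaling, the filter on both channels, the mean of probes or the trend. Those called lower went from 2 to 4 with an offset of 16, 16 with median centring, 5 with scaling, 1 with the deposited ratio (Timp3, not well above background in CD133-positive cells), 5 with the trend, and 0 with no filter, the dimmest probe, no moderation or a log2 fold of 0.5. Those at least 2-fold lower on both arrays went from 5 to 11 with the deposited ratio, and ranged from 5 to 10 when 1 array was left out, a value with no test. The median ratio went from -0.28 to 0.19 with median centring, -0.96 with the deposited ratio and -0.039 with no filter. Apart from the effect of construction (fewer or more genes tested, no pooled variance), the cause was not tested. Each ratio is taken within an array that holds both fractions, so the test is paired by construction. Signal over background limits the 10 genes that passed only through CD133-negative cells and the 38 untested ones.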
